A study of Mus musculus with 8 samples.

Results

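The 45 genes described here encode the contractile and calcium-handling machinery of striated muscle, in the isoforms of the heart and of skeletal muscle, with the natriuretic peptides and the myogenic factors. They were taken by gene symbol from a table of 24421 genes, and all 45 were found. By their main site of expression, 18 are cardiac, 16 are skeletal and 11 are shared by both muscles. Messenger RNA was sequenced from mouse embryonic stem cells (mESCs) in 4 groups of 2 libraries, each from its own biological sample. Hira-null cells are the mutant line named Clone 104 and WT cells are the line W9.5, and cells of both genotypes carry the histone variant H3.3 with an HA tag. HIRA is a histone chaperone that places H3.3 into chromatin outside DNA replication. Each genotype was sequenced after 15 days of hanging drop differentiation towards cardiomyocytes (day 15) and as undifferentiated cells (day 0). Clone 104 is 1 clone, so an effect of Hira loss and another difference between the clone and W9.5 cannot be told apart. The day 15 cultures were not sorted and hold other cell types beside cardiomyocytes. The heart markers Actc1, Myh6 and Tnnt2 were at 25.2 FPKM or more in every day 15 library.

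In striated muscle, thick filaments of myosin pull on thin filaments of actin, tropomyosin and troponin. Calcium released from the sarcoplasmic reticulum binds troponin C, which lets troponin I and troponin T move tropomyosin off the actin. The heart and the slow and fast skeletal fibres build the same apparatus partly from different genes. Slow fibres and the heart share some of them, such as Myh7 and Atp2a2. The isoforms in a culture can therefore help to tell muscle programmes apart, but not where a gene is shared. The embryonic heart also expresses several slow skeletal isoforms, and atrial and ventricular chambers differ in their myosin light chains. Skeletal muscle is specified by the basic helix-loop-helix factors Myf5 and MyoD, and myogenin then drives fusion and the contractile genes. These factors bind the E-box.

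Levels are in FPKM, fragments counted per unit of gene length and of library size, and can be compared between genes. The libraries held between 6914225 and 11106891 counted fragments. Hira itself was at 16.7 and 19.8 FPKM in the day 15 libraries labelled Hira-null, against 15.8 and 15.5 FPKM in WT, and at day 0 at 12.4 and 11.4 FPKM in the libraries labelled Hira-null, against 27.3 and 28.5 FPKM in WT. It was thus lower in the mutant at day 0 (log2 fold change −1.17 ± 0.10 SE, limma adjusted p = 8.48e-05) and not at day 15 (0.20 ± 0.11, adjusted p = 0.167). The level over the whole gene is no check of the label if the allele still gives a transcript, and no source used here gives the part of the gene that Clone 104 lacks. Hira-null therefore means below the libraries that carry this label. Fold changes are on the log2(FPKM + 1) scale, which shrinks the differences of weakly expressed genes. A gene was called where limma's p, adjusted by Benjamini-Hochberg over the 14337 genes tested, was 0.05 or less. Of the members, 39 were tested and 6 were not, since Myh8, Myl1, Atp2a1, Ckm, Myf5 and Myf6 did not reach an FPKM of 1 in 2 libraries.

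The first question was how the muscle genes of the differentiated cultures differed between the genotypes. In the day 15 libraries labelled Hira-null, the fast skeletal troponins, MyoD, myogenin, embryonic myosin, desmin and both regulatory myosin light chains of the heart fell, while atrial natriuretic peptide, the 2 calsequestrins and carbonic anhydrase 3 rose. Both essential light chains of the heart, and titin and alpha actinin, which both muscles use, did not pass the test. In all, 10 members were higher and 15 lower of the 39 tested, which is 64.1%, where 37.4% of all tested genes were called (18.6% higher and 18.8% lower). With an absolute log2 fold change of 1 or more as well, 5 were higher and 10 lower, where 8.86% of all tested genes passed both limits (4.78% higher and 4.08% lower). The median log2 fold change was −0.21 over the tested members and 0.011 over all tested genes. Among cardiac members 6 were higher and 6 lower of 18, among skeletal members 2 were higher and 6 lower of the 10 tested, and among shared members 2 were higher and 3 lower of 11. Casq2 and Nppa entered the test through Hira-null day 15 alone and Tnni2, Tcap, Myod1 and Myog through WT day 15 alone, so that these 6 entered through the group where they are high and the counts are a description. All but Tcap were called. Casq1 and Nebl outside Hira-null day 15, and Tnnc2 and Pln outside WT day 15, did not reach an FPKM of 1 in 2 libraries. They therefore also needed the group where they are high to enter the test. In such bulk samples, fewer cells of a type and less RNA per cell cannot be told apart.

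**Figure D1:**
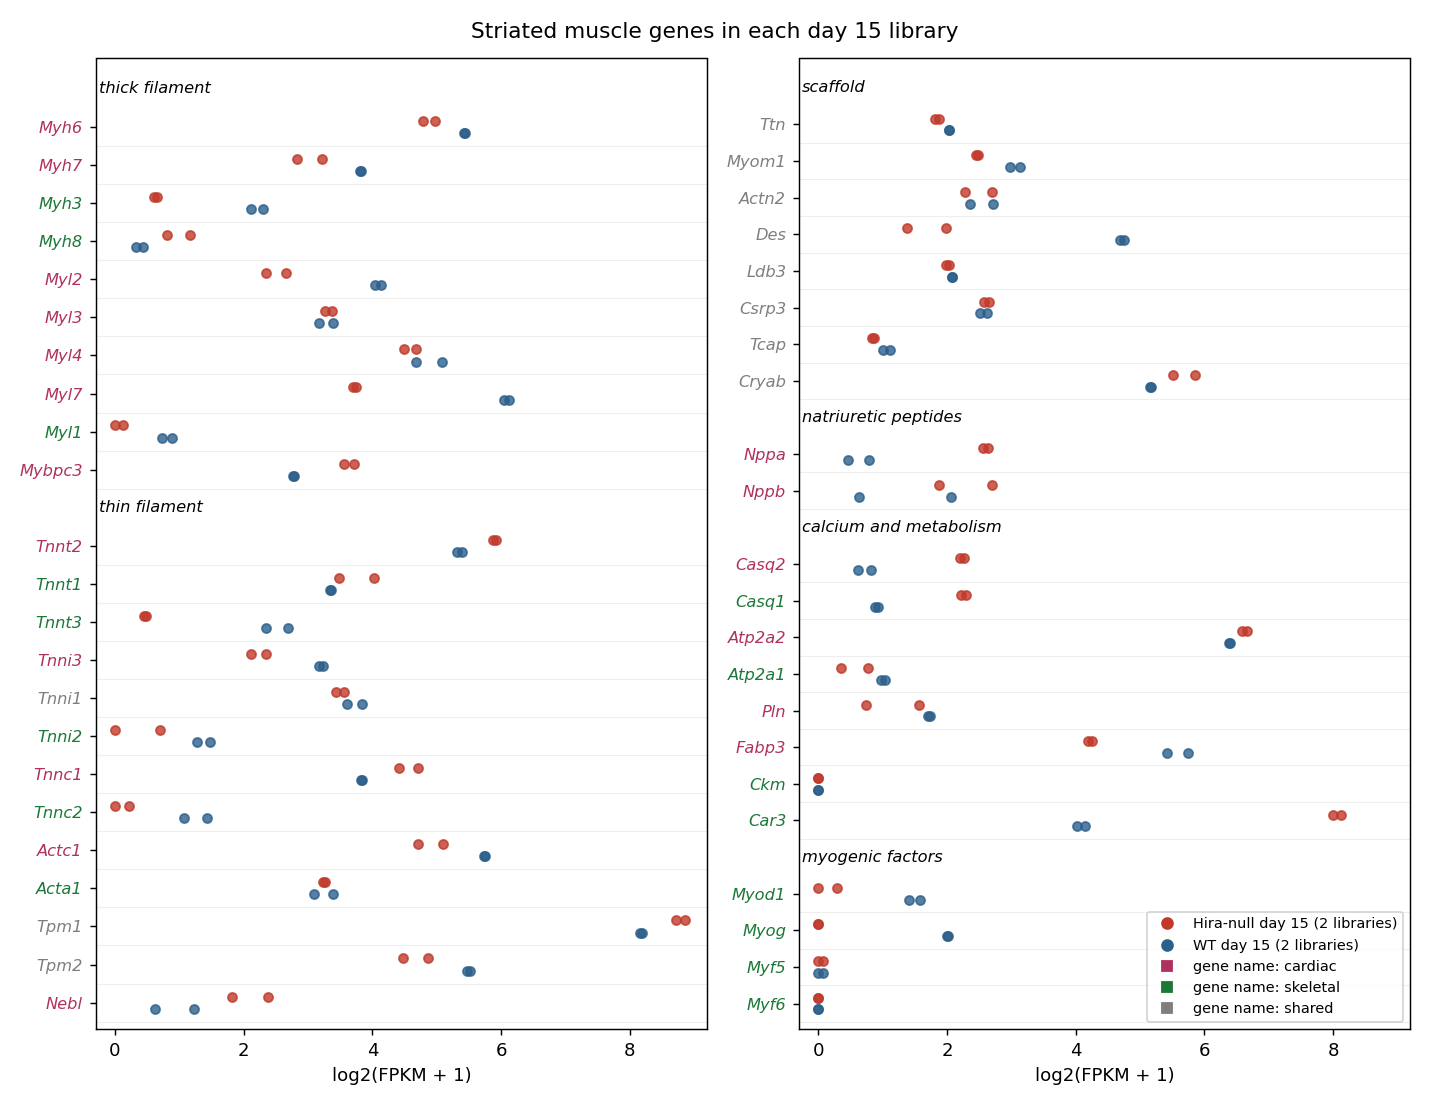
Level of each of the 45 genes in the 4 day 15 libraries, as log2(FPKM + 1) on the horizontal axis, by role. Red points are the 2 Hira-null libraries and blue points the 2 WT libraries, and the colour of the gene name gives its class. Myog lies at 0 in both Hira-null libraries, Car3 lies far to the right in them, and the points of Actn2, Csrp3 and Myl3 lie close together.

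Of the myogenic factors, myogenin (Myog) was at 0 FPKM in both Hira-null libraries, against 3.01 and 3.06 FPKM in WT at day 15. No fragment was counted in Hira-null and 95 were counted in WT, so that the level was at least 27.6-fold lower in Hira-null, with a floor of 3 fragments over the group. The log2 fold change of Myog was −2.01 ± 0.20 SE. Myod1 was at 0 and 0.227 FPKM in Hira-null, against 2.004 and 1.66 FPKM in WT, and was also lower (−1.35 ± 0.19). Myog and Myod1 entered the test through WT day 15 alone, so no test is given for them here. Both factors were thus near or at 0 in every Hira-null culture and clearly detected in every WT culture. The other pair of the family was hardly detected at all. Myf5, the earliest of the factors to act, was at 0.0539 and 0 FPKM in Hira-null, against 0.0510 and 0 FPKM in WT, and Myf6, a factor of mature fibres, was at 0 in all 8 libraries.

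The fast skeletal troponins followed the same direction. Troponin T of fast fibres (Tnnt3) was at 0.401 and 0.375 FPKM in Hira-null, against 4.07 and 5.48 FPKM in WT (log2 fold change −2.05 ± 0.25 SE, adjusted p = 0.000428). Fast troponin I (Tnni2) was at 0 and 0.630 FPKM in Hira-null, against 1.43 and 1.79 FPKM in WT (−1.03 ± 0.28). Tnni2 entered the test through WT day 15 alone, so no test is given for it. Fast troponin C (Tnnc2) was at 0.162 and 0 FPKM in Hira-null, against 1.69 and 1.11 FPKM in WT (−1.14 ± 0.38, adjusted p = 0.0428). For all 3 genes the groups did not overlap. With 2 libraries against 2, an exact permutation test gives such a separation a p of 0.333. A lack of overlap is therefore a description, here and below. The Tnnc2 values rest on 1 fragment in Hira-null and 20 in WT, a ratio of 17.4 with a 95% counting interval of 2.79 to 723. Over the fits that left out 1 library, the log2 fold change was −1.38 to −0.68 for Tnni2 and −1.32 to −0.97 for Tnnc2. Their calls were lost in 3 and 4 of those 8 fits. Tnnc2 also needed its WT day 15 libraries to enter the test, so its adjusted p is a description. Slow troponin T (Tnnt1) did not share this pattern, at 10.1 and 15.3 FPKM in Hira-null, against 9.17 and 9.28 FPKM in WT (0.40 ± 0.17, adjusted p = 0.0957; without Hira-null day 15 replicate 1 the adjusted p was 0.00675). Slow troponin I (Tnni1), which the embryonic heart also expresses, was at 9.87 and 10.8 FPKM in Hira-null, against 13.3 and 11.2 FPKM in WT (−0.22 ± 0.16, adjusted p = 0.307).

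Tnni2 and Tnnt3 lie close together on chromosome 7 of the mm9 genome. Tnni2 spans chr7:149627713-149630315 and Tnnt3 spans chr7:149684741-149701914, both on the plus strand, with Lsp1 (chr7:149646714-149680772) between them. Beyond Tnnt3 lie Mrpl23 and the imprinted genes H19 and Igf2, which in the mouse are expressed from opposite parental chromosomes. Lsp1, a cytoskeletal protein of leukocytes and other cells, was at 6.89 and 10.1 FPKM in Hira-null, against 32.5 and 32.2 FPKM in WT (log2 fold change −1.83 ± 0.18 SE, adjusted p = 0.000147). H19, a long noncoding RNA of fetal mesoderm and endoderm, was at 101.2 and 117.3 FPKM in Hira-null, against 3890 and 3941 FPKM in WT (−5.15 ± 0.08, adjusted p = 4.69e-09). The direction turned with Igf2, a growth factor, which was at 819.6 and 804.3 FPKM in Hira-null, against 164.4 and 161.8 FPKM in WT (2.31 ± 0.11, adjusted p = 7.68e-06). Mrpl23, a mitochondrial ribosomal protein, did not pass (−0.61 ± 0.26, adjusted p = 0.0979), and Ctsd on the other side was higher by 0.28 ± 0.09 (adjusted p = 0.0346). Genes on both sides of the troponins thus moved in both directions, and their part in the troponin result was not tested. H19 was already lower at day 0, at 20.3 and 20.84 FPKM in Hira-null, against 579.9 and 588.9 FPKM in WT. Of the 5 tested neighbours, 3 were higher and 1 lower in Hira-null at day 0, where 40.2% of all tested genes were called.

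**Figure D2:**
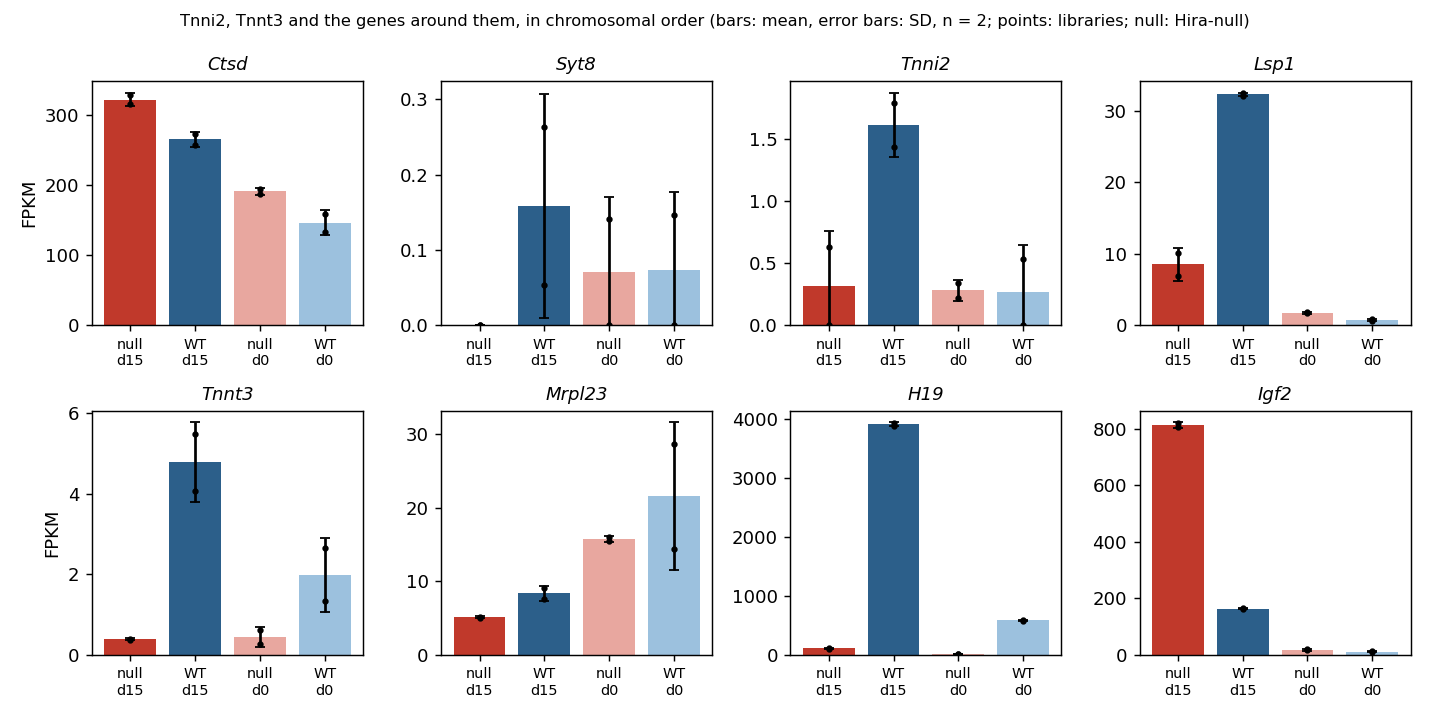
FPKM of Tnni2, Tnnt3 and 6 genes around them on chromosome 7, in chromosomal order, each panel with its own vertical axis from 0. Bars are the mean and error bars the SD of 2 libraries, with the libraries as points, in Hira-null and WT at day 15 and then in Hira-null and WT at day 0. Tnni2, Lsp1, Tnnt3 and H19 were lower in Hira-null at day 15 and Igf2 was higher.

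Of the skeletal thick filament genes, embryonic myosin heavy chain (Myh3) was at 0.524 and 0.579 FPKM in Hira-null, against 3.33 and 3.92 FPKM in WT (log2 fold change −1.57 ± 0.15 SE, adjusted p = 0.000145). Perinatal myosin heavy chain (Myh8), the isoform that follows embryonic myosin in developing fibres, went the other way. It was at 0.748 and 1.25 FPKM in Hira-null, against 0.259 and 0.361 FPKM in WT, too low to be tested. Fast essential light chain (Myl1) was at 0 and 0.0946 FPKM in Hira-null, against 0.669 and 0.846 FPKM in WT. This is 1 fragment against 18, a ratio of 15.7 (95% counting interval 2.48 to 654) that covers counting error only. Neither gene overlapped between the genotypes at day 15.

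The skeletal genes outside the filament regulators did not all fall. Carbonic anhydrase 3 (Car3), an enzyme abundant in slow fibres, fat and liver, had the largest change of the tested members on the log2(FPKM + 1) scale. It was at 253.3 and 278.3 FPKM in Hira-null, against 15.2 and 16.6 FPKM in WT (log2 fold change 3.98 ± 0.28 SE, adjusted p = 4.92e-05). Skeletal calsequestrin (Casq1), which stores calcium in the sarcoplasmic reticulum, was at 3.89 and 3.64 FPKM in Hira-null, against 0.850 and 0.911 FPKM in WT (1.34 ± 0.20, adjusted p = 0.00124). Both genes separated the genotypes without overlap. Casq1 needed its Hira-null day 15 libraries to enter the test, so its adjusted p is a description. The summed level of the 16 skeletal members was 278.6 and 309.1 FPKM in Hira-null, against 52.3 and 53.6 FPKM in WT, and without Car3 it was 25.3 and 30.8 FPKM in Hira-null, against 37.1 and 36.9 FPKM in WT. Car3 alone thus set the direction of the sum. The fast calcium pump SERCA1 (Atp2a1) was at 0.718 and 0.275 FPKM in Hira-null, against 1.05 and 0.967 FPKM in WT. Muscle creatine kinase (Ckm), a marker of differentiated fibres, was at 0 in all 4 day 15 libraries. Skeletal alpha actin (Acta1) was at 8.64 and 8.43 FPKM in Hira-null, against 9.53 and 7.55 FPKM in WT, with overlapping groups (0.01 ± 0.13, adjusted p = 0.972).

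Car3 lies at chr3:14863538-14872351 in mm9, in a cluster of carbonic anhydrase genes. Its neighbour Car2, the widely expressed cytosolic enzyme, was at 61.1 and 52.1 FPKM in Hira-null, against 18.98 and 21.5 FPKM in WT, and also rose (log2 fold change 1.44 ± 0.20 SE, adjusted p = 0.000819). Car13 did not pass (−0.03 ± 0.21, adjusted p = 0.924), and Car1 was at 0 in every day 15 library. Among 8 adipocyte markers, of which 4 were at 0 in both Hira-null libraries and 2 in both WT libraries, the summed level was 16.7 and 14.7 FPKM in Hira-null, against 23.8 and 20.5 FPKM in WT. Lpl alone gave 16.05 and 14.45 FPKM of it in Hira-null, and 18.98 and 18.44 FPKM in WT. The sum thus mostly describes Lpl. Fabp4, the fatty acid binding protein of fat cells, was at 0.350 and 0.164 FPKM in Hira-null, against 3.31 and 1.46 FPKM in WT, and entered the test through WT day 15 alone, so no test is given for it.

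In the heart, the myosin heavy chains and both regulatory light chains were lower in Hira-null, and myosin-binding protein C was higher. The atrial regulatory light chain (Myl7) was at 12.4 and 11.9 FPKM in Hira-null, against 68.9 and 64.9 FPKM in WT (log2 fold change −2.37 ± 0.11 SE, adjusted p = 7.68e-06). Its ventricular counterpart (Myl2) was at 4.08 and 5.31 FPKM in Hira-null, against 15.4 and 16.6 FPKM in WT (−1.59 ± 0.23, adjusted p = 0.00104). The regulatory light chains of both chamber types were thus lower. The essential light chains differed less. The ventricular one (Myl3) was at 9.37 and 8.66 FPKM in Hira-null, against 9.46 and 7.98 FPKM in WT (0.05 ± 0.26, adjusted p = 0.906), and the atrial one (Myl4) at 24.7 and 21.5 FPKM in Hira-null, against 32.8 and 24.6 FPKM in WT (−0.29 ± 0.14, adjusted p = 0.133). Alpha myosin heavy chain (Myh6), the fast isoform of the adult mouse heart, was at 26.6 and 30.3 FPKM in Hira-null, against 42.6 and 41.8 FPKM in WT (−0.55 ± 0.16, adjusted p = 0.0272). Beta myosin heavy chain (Myh7), the fetal isoform and that of slow fibres, was at 6.14 and 8.26 FPKM in Hira-null, against 13.1 and 12.9 FPKM in WT (−0.79 ± 0.18, adjusted p = 0.00803). Cardiac myosin-binding protein C (Mybpc3) differed in direction, at 10.8 and 12.2 FPKM in Hira-null, against 5.91 and 5.82 FPKM in WT (0.86 ± 0.17, adjusted p = 0.00446). The Myh6, Myh7 and Mybpc3 calls were lost without WT day 15 replicate 1 (adjusted p = 0.191, 0.0830 and 0.0536) and without WT day 15 replicate 2 (0.172, 0.0786 and 0.0562), and that of Myh6 also without Hira-null day 15 replicate 1 (0.112).

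The cardiac thin filament was mixed. Cardiac alpha actin (Actc1) was at 33.2 and 25.2 FPKM in Hira-null, against 52.7 and 52.3 FPKM in WT (log2 fold change −0.84 ± 0.24 SE, adjusted p = 0.0236). Cardiac troponin C (Tnnc1) was at 20.3 and 25.1 FPKM in Hira-null, against 13.1 and 13.4 FPKM in WT (0.73 ± 0.15, adjusted p = 0.00605). Nebulette (Nebl), which links thin filaments to the cardiac Z disc, was at 4.18 and 2.54 FPKM in Hira-null, against 0.534 and 1.35 FPKM in WT (1.17 ± 0.26, adjusted p = 0.00769). None of these 3 genes overlapped between the genotypes. Nebl needed its Hira-null day 15 libraries to enter the test, so its adjusted p is a description. Cardiac troponin T (Tnnt2), a marker used to identify cardiomyocytes, was at 57.8 and 59.7 FPKM in Hira-null, against 38.9 and 41.0 FPKM in WT and missed the threshold (0.55 ± 0.22, adjusted p = 0.0838). Cardiac troponin I (Tnni3), which replaces Tnni1 as the heart matures, was at 4.09 and 3.31 FPKM in Hira-null, against 7.99 and 8.39 FPKM in WT and missed it too (−0.97 ± 0.41, adjusted p = 0.0951). In a fit of the 4 day 15 libraries alone both passed, with an adjusted p of 0.00391 for Tnnt2 and 0.00414 for Tnni3, as they did with limma-voom on the recovered fragments (0.000312 and 0.0270). Without WT day 15 replicate 1, Actc1 had an adjusted p of 0.174, Tnnc1 of 0.0695 and Nebl of 0.0807, and without WT day 15 replicate 2, Actc1 had 0.171 and Tnnc1 0.0632. Actc1 also lost its call without Hira-null day 15 replicate 2 (0.116), and Tnnt2 and Tnni3 gained one without Hira-null day 0 replicate 1 (0.0433 and 0.0117) or Hira-null day 0 replicate 2 (0.0426 and 0.0112), Tnnt2 also without WT day 0 replicate 1 (0.0470) or WT day 0 replicate 2 (0.0480).

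Both natriuretic peptide genes, whose hormones are released by stretched heart muscle, had higher means in Hira-null. Atrial natriuretic peptide (Nppa) was at 4.87 and 5.20 FPKM in Hira-null, against 0.384 and 0.721 FPKM in WT (log2 fold change 1.97 ± 0.17 SE). Nppa entered the test through Hira-null day 15 alone, so no test is given for it here. B-type natriuretic peptide (Nppb) was at 5.46 and 2.69 FPKM in Hira-null, against 0.544 and 3.17 FPKM in WT, so that the groups overlapped (0.94 ± 0.44, adjusted p = 0.125). Without WT day 15 replicate 2, the higher of the WT libraries, Nppb had a log2 fold change of 1.66 and an adjusted p of 0.0334.

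Among the calcium-handling and metabolic genes of the heart, cardiac calsequestrin (Casq2) rose and the heart fatty acid binding protein (Fabp3) fell. Casq2 was at 3.62 and 3.80 FPKM in Hira-null, against 0.760 and 0.543 FPKM in WT (log2 fold change 1.51 ± 0.16 SE). Casq2 entered the test through Hira-null day 15 alone, so no test is given for it here. Fabp3 was at 18.1 and 17.2 FPKM in Hira-null, against 52.7 and 41.7 FPKM in WT (−1.36 ± 0.13, adjusted p = 0.000160). The calcium pump of the heart and slow fibres, SERCA2 (Atp2a2), which many other cells also express, was at 94.4 and 100.4 FPKM in Hira-null, against 82.8 and 82.0 FPKM in WT (0.24 ± 0.06, adjusted p = 0.0170). This small difference did not pass when a WT day 15 library was left out (adjusted p of 0.0806 for replicate 1 and 0.0929 for replicate 2), nor without Hira-null day 15 replicate 2 (0.0505). Phospholamban (Pln), its inhibitor, was at 1.95 and 0.678 FPKM in Hira-null, against 2.27 and 2.34 FPKM in WT (−0.57 ± 0.25, adjusted p = 0.104). Pln was lower in both Hira-null libraries, with a log2 fold change of −0.98 when Hira-null day 15 replicate 1 was left out. Pln needed its WT day 15 libraries to enter the test, so these differences are a description.

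Of the genes both muscles use, desmin (Des), the intermediate filament that ties myofibrils together, had the largest fall of the tested members on the log2(FPKM + 1) scale. That scale shrinks the changes of weakly expressed genes, and by fragments Myog was at least 27.6-fold lower. Desmin was at 1.61 and 2.95 FPKM in Hira-null, against 24.8 and 25.8 FPKM in WT (log2 fold change −3.03 ± 0.19 SE, adjusted p = 2.82e-05). The tropomyosins, which cover the myosin sites on actin, went in opposite directions. Tpm1 was at 420.0 and 460.1 FPKM in Hira-null, against 283.3 and 290.4 FPKM in WT (0.61 ± 0.08, adjusted p = 0.000455), and Tpm2 at 21.2 and 28.2 FPKM in Hira-null, against 43.6 and 44.95 FPKM in WT (−0.83 ± 0.18, adjusted p = 0.00648). Smooth muscle and other cells also express both. The small heat shock protein Cryab rose by 0.52 ± 0.11 (adjusted p = 0.00677) and the M band protein Myom1 fell by 0.59 ± 0.16 (adjusted p = 0.0202). Without WT day 15 replicate 1, Tpm2, Cryab and Myom1 had an adjusted p of 0.0731, 0.0590 and 0.150, and without WT day 15 replicate 2, of 0.0833, 0.0648 and 0.0797. Myom1 also missed the threshold without Hira-null day 15 replicate 1 (0.0506) or Hira-null day 15 replicate 2 (0.0607). The remaining scaffold genes, titin (Ttn), alpha actinin (Actn2), Ldb3 and telethonin (Tcap) of the Z disc, and muscle LIM protein (Csrp3), did not pass, with log2 fold changes between −0.21 (Tcap) and 0.05 (Csrp3). With limma-voom on the recovered fragments Ttn was lower (−0.25, adjusted p = 0.00358).

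Several other gene lists moved beside these. They were chosen with earlier results of these data known, so the shares called are a description. The paper had already named Gata4, Gata6, Hand1, Hand2 and Isl1 among genes lower in Hira-null in these data. It also reported a rise of nervous system genes. Of 10 cardiac transcription factors, 9 were tested and 7 were lower in Hira-null, with none higher (77.8%, where 18.8% of all tested genes were lower and 18.6% higher), and their summed level was 48.8 and 52.0 FPKM in Hira-null, against 156.3 and 147.9 FPKM in WT. The largest falls were those of Gata6 (log2 fold change −2.65 ± 0.17 SE, adjusted p = 2.82e-05), Hand1 (−2.45 ± 0.13, adjusted p = 1.12e-05), Gata4 (−2.41 ± 0.14, adjusted p = 1.57e-05) and Hand2 (−2.27 ± 0.16, adjusted p = 5.06e-05), factors of the early heart that other mesoderm and endoderm also expresses. At day 0 Gata4 (−2.59 ± 0.13, adjusted p = 8.25e-06), Gata6 (−2.15 ± 0.16, adjusted p = 4.22e-05) and Hand1 (−2.14 ± 0.12, adjusted p = 1.49e-05) were already lower in Hira-null. For these 3 the difference between the days did not pass (adjusted p = 0.502, 0.126 and 0.218), and Hand2 was not called at day 0 (−0.17 ± 0.16, adjusted p = 0.439). Smooth muscle markers were lower for 7 and higher for 1 of 10 (80% called, where 37.4% of all tested genes were), with a summed level of 952.2 and 949.2 FPKM in Hira-null, against 1410 and 1324 FPKM in WT, and none at 0. Of them, Cnn1 (−2.37 ± 0.25, adjusted p = 0.000212) and Myh11 (−2.35 ± 0.17, adjusted p = 5.27e-05), smooth muscle calponin and myosin, fell most. Neuron markers were higher for 7 of 8 (87.5%, where 18.6% of all tested genes were higher), with a summed level of 285.2 and 292.1 FPKM in Hira-null, against 123.5 and 125.0 FPKM in WT. The part of these other cell types in the muscle results was not tested.

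Other genes of the muscle pathway were counted in the same way. Of 14 tested further cardiac muscle genes 1 was higher and 3 lower, of 14 tested further skeletal muscle genes 2 were higher and 3 lower, and of 19 tested further genes of both muscles 1 was higher and 6 lower. These are 28.6%, 35.7% and 36.8% called, close to or under the 37.4% of all tested genes. The falls past a log2 fold change of 1 in these 3 lists were those of Hspb7 (−1.03 ± 0.20 SE, adjusted p = 0.00451), a small heat shock protein of the heart, Cdh15 (−1.29 ± 0.20, adjusted p = 0.00149), the cadherin of myoblasts, and Hspb6 (−1.11 ± 0.17, adjusted p = 0.00134), another small heat shock protein, beside myoglobin. Myoglobin (Mb), which entered the test through WT day 15 alone and is given without its test, was at 0.179 and 0.671 FPKM in Hira-null, against 2.63 and 1.43 FPKM in WT. Cdh15 was at 0.118 and 0 FPKM in Hira-null, against 1.87 and 1.32 FPKM in WT. No rise in these 3 lists passed a log2 fold change of 1. The fast skeletal regulatory light chain (Mylpf), of the further skeletal genes, went the other way. It was at 17.7 and 15.9 FPKM in Hira-null, against 9.28 and 9.38 FPKM in WT. Of 13 tested factors of skeletal muscle progenitors 3 were lower and none higher (23.1% called). Among those, Tcf21, a factor of branchial muscle and of epicardial and other mesenchyme, was at 1.19 and 0.685 FPKM in Hira-null, against 18.9 and 20.2 FPKM in WT (−3.42 ± 0.18, adjusted p = 1.10e-05), and Meox1, a factor of the somite, at 0.102 and 0.381 FPKM in Hira-null, against 2.07 and 1.70 FPKM in WT. Meox1 also entered through WT day 15 alone and is given without its test.

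To show the DNA beside these values, the 250 bases before the RefSeq start are printed for some called members with an entry. They are the 3 with the largest rise and the 3 with the largest fall in log2 fold change at day 15. Each stretch is on the strand of the gene and in GRCm38.p6 coordinates. Capitals mark matches, on either strand, to the E-box CANNTG, the site of the myogenic factors and of many other helix-loop-helix proteins, to CATTCC (the MCAT element), to TATAAA, and to the consensus sites named MEF2 and CArG, which bind MEF2 factors and serum response factor. The first 3 genes were higher in Hira-null and the last 3 lower.
Nppa, chr4:148000472-148000721, plus strand: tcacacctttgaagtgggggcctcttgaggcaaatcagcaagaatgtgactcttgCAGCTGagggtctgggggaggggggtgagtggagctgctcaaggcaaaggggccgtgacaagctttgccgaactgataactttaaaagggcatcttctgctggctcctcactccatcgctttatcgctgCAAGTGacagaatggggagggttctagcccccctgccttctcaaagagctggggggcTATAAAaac
Casq2, chr3:102086165-102086414, plus strand: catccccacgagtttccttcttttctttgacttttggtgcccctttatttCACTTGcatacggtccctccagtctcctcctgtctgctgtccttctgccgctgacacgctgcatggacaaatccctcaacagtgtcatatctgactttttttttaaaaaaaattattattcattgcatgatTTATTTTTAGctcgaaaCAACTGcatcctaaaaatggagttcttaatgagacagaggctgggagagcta
Casq1, chr1:172219896-172220145, minus strand: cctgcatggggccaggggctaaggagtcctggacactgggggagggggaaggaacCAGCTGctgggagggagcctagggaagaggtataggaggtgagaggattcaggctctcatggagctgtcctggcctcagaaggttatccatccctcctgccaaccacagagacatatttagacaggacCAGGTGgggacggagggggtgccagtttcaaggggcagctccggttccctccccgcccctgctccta
Des, chr1:75360042-75360291, plus strand: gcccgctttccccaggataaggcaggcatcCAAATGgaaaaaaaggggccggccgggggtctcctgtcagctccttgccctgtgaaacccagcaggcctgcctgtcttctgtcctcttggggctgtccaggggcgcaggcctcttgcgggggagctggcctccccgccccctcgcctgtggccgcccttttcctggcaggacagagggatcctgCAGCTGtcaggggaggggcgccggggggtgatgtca
Myl7, chr11:5898783-5899032, minus strand: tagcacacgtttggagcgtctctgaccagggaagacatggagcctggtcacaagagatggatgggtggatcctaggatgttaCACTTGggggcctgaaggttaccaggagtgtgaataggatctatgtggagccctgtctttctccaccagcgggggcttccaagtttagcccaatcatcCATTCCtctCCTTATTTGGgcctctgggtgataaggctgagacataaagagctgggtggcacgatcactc
Myog, chr1:134289754-134290003, plus strand: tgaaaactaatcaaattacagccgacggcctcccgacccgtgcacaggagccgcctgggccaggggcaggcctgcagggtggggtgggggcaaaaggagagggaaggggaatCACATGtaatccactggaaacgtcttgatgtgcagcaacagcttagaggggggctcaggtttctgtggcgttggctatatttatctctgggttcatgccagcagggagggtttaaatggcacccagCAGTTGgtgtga

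E-boxes were found in all 6 stretches, among genes that rose and genes that fell. The variant CAGCTG stood in Nppa, Casq1 and Des, a TATAAA match just before the start in Nppa, a MEF2 match in Casq2, and a CATTCC match with a CArG match close after it in Myl7. Over the 46 RefSeq promoters of the 37 members with an entry, CANNTG was present in 84.8% against 66.2% of all 32851 mouse promoters of this length, CAGCTG, a form of CANNTG, in 30.4% against 13%, CATTCC in 23.9% against 12.6%, TATAAA in 19.6% against 12.4%, the MEF2 consensus in 8.7% against 2.92%, and the CArG consensus in 17.4% against 1.47%. Some genes have several promoters that overlap. The promoters of members higher at day 15 held CANNTG in 80% of 10, and those of members lower in 92.9% of 14. A match is a description of the letters and was not tested for binding. The members with no entry were Atp2a2, Car3, Cryab, Myf6, Myod1, Tcap, Tnni2 and Tnnt3.

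**Figure D3:**
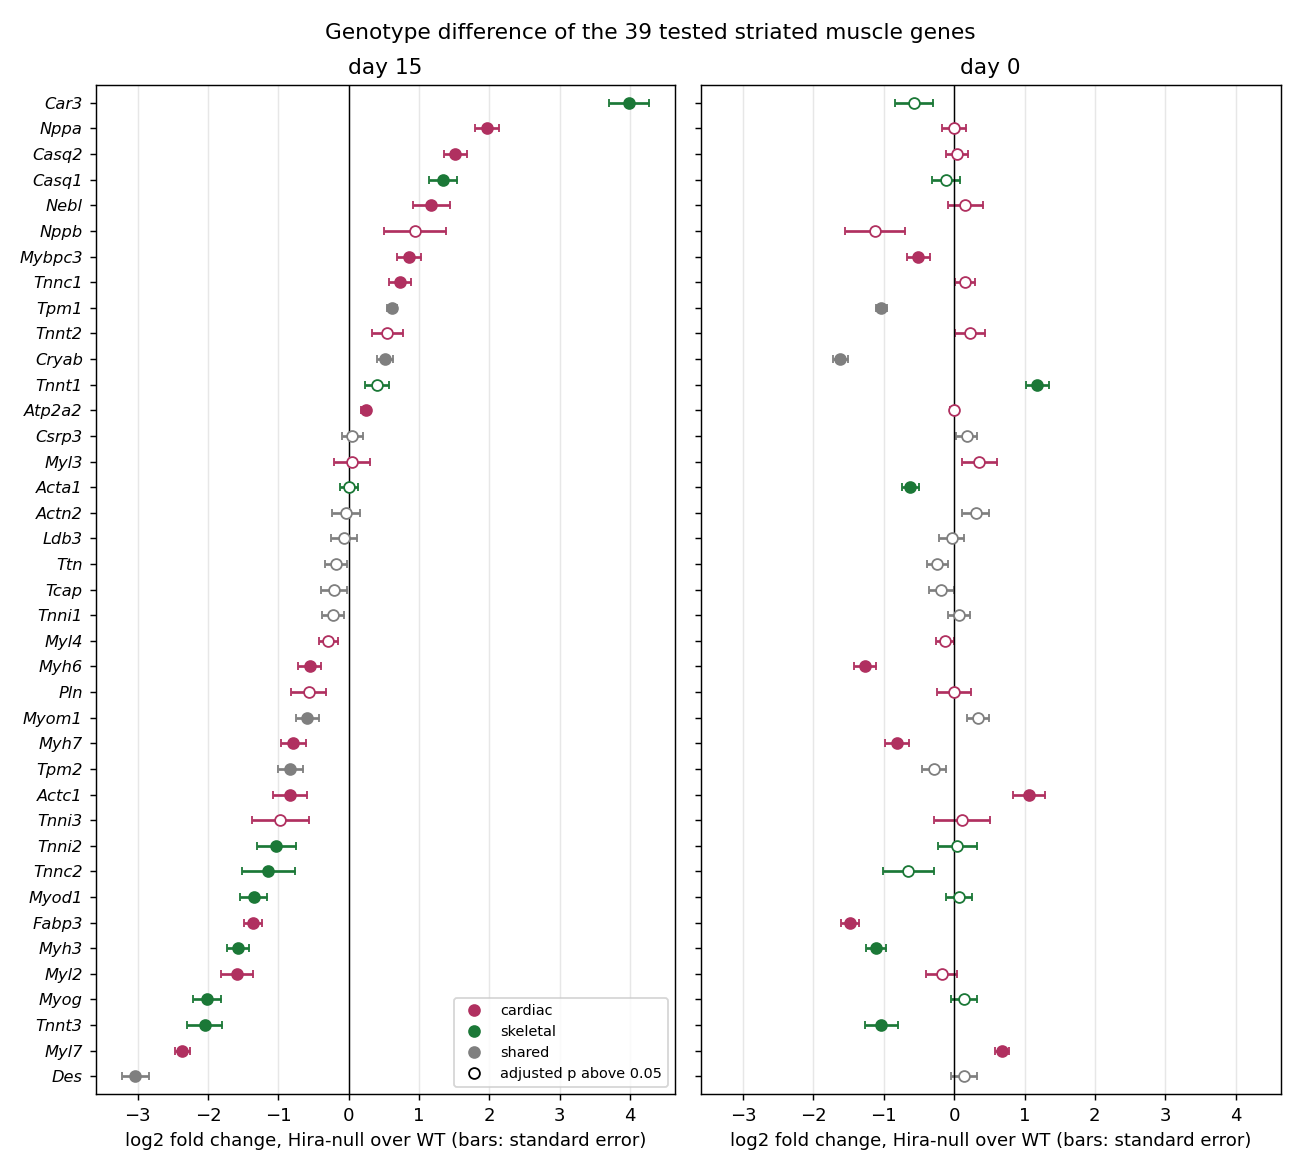
Log2 fold change of Hira-null over WT, with its standard error, for the 39 tested genes at day 15 (left) and day 0 (right), in order of the day 15 value and on the same horizontal scale. Filled points passed the test and open points did not, and colours give the class. Car3 stands out at the top at day 15 and Des and Myl7 at the bottom, and neither Car3 nor Des is filled at day 0.

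To set cardiac against skeletal isoforms of the same protein, the log2 of skeletal over cardiac (FPKM + 1) was taken in each library for 11 pairs. In the pair Tnni1 over Tnni3 the first gene is a shared member. With 2 libraries against 2, an exact permutation test cannot give a p under 0.333, so the ratios are described without a call. At day 15 the cardiac isoform was the higher one in every library of both genotypes for troponin T, troponin C, alpha actin, SERCA, the Myl1 and Myl4 light chains, Myh3 against Myh6 and Myh8 against Myh6, and also for fast against cardiac troponin I. Fast over cardiac troponin T (Tnnt3 over Tnnt2) was −5.39 and −5.46 in Hira-null, against −2.98 and −2.69 in WT, a difference of −2.59 in log2 units. Troponin C (Tnnc2 over Tnnc1) was −4.19 and −4.71 in Hira-null, against −2.39 and −2.77 in WT, a difference of −1.87. Embryonic over alpha cardiac myosin (Myh3 over Myh6) was −4.18 and −4.31 in Hira-null, against −3.33 and −3.12 in WT, a difference of −1.02. For SERCA (Atp2a1 over Atp2a2) and the essential light chains (Myl1 over Myl4) the differences were −0.68 and −0.46. In these 5 pairs the balance lay further on the cardiac side in Hira-null, with no overlap. The size of the differences depends on the constant added to low values. With 0.1 in place of 1, 8 of the 11 moved by more than the spread between replicates, none of them to the other sign, and 3 did not. Troponin C then had −3.95, fast troponin T −3.86, Myl1 over Myl4 −2.31, Myh3 over Myh6 −1.94 and SERCA −1.24.

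Of the other 6 pairs, 3 shifted the other way and 3 overlapped between the genotypes. Perinatal over alpha cardiac myosin (Myh8 over Myh6) was −3.98 and −3.80 in Hira-null, against −5.12 and −4.97 in WT, a difference of 1.15. Alpha actin (Acta1 over Actc1) was −1.83 and −1.47 in Hira-null, against −2.35 and −2.64 in WT, a difference of 0.85. Slow over cardiac troponin I (Tnni1 over Tnni3) was 1.10 and 1.46 in Hira-null, against 0.67 and 0.38 in WT, a difference of 0.75. Tnni1 was the higher gene in all 4 cultures. Since the embryonic heart also expresses Tnni1, a shared member, this pair does not set skeletal muscle against heart. Myh8 over Myh6 and Acta1 over Actc1 thus lay closer to the skeletal side in Hira-null, and Tnni1 over Tnni3 further towards Tnni1. The calsequestrins (Casq1 over Casq2) stood near parity, at 0.08 and −0.05 in Hira-null, against 0.07 and 0.31 in WT, so that the groups overlapped, although both genes were higher in Hira-null. Slow over cardiac troponin T (Tnnt1 over Tnnt2), at −2.40 and −1.90 in Hira-null, against −1.97 and −2.03 in WT, and fast over cardiac troponin I (Tnni2 over Tnni3), at −2.35 and −1.40 in Hira-null, against −1.88 and −1.75 in WT, overlapped too. With 0.1 added, Tnni2 over Tnni3 had −1.52, against −0.06 with 1, and Myh8 over Myh6 had 1.96.

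At day 0, where most of these genes were low, the balance was different. Fast over cardiac troponin T (Tnnt3 over Tnnt2) was −0.43 and 0.45 in Hira-null, against 1.22 and 1.30 in WT, and alpha actin (Acta1 over Actc1) was 2.65 and 1.90 in Hira-null, against 4.28 and 3.64 in WT. Skeletal alpha actin was thus the higher actin in every stem cell library and the lower one in every differentiated culture, and the swing between the days was −3.92 log2 units in Hira-null and −6.46 in WT. Slow over cardiac troponin T (Tnnt1 over Tnnt2) was 3.13 and 3.59 in Hira-null at day 0, against 2.71 and 2.09 in WT, and changed by −5.51 to day 15 in Hira-null and by −4.40 in WT. Slow over cardiac troponin I (Tnni1 over Tnni3) moved the other way, by 3.24 in Hira-null and 2.45 in WT.

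**Figure D4:**
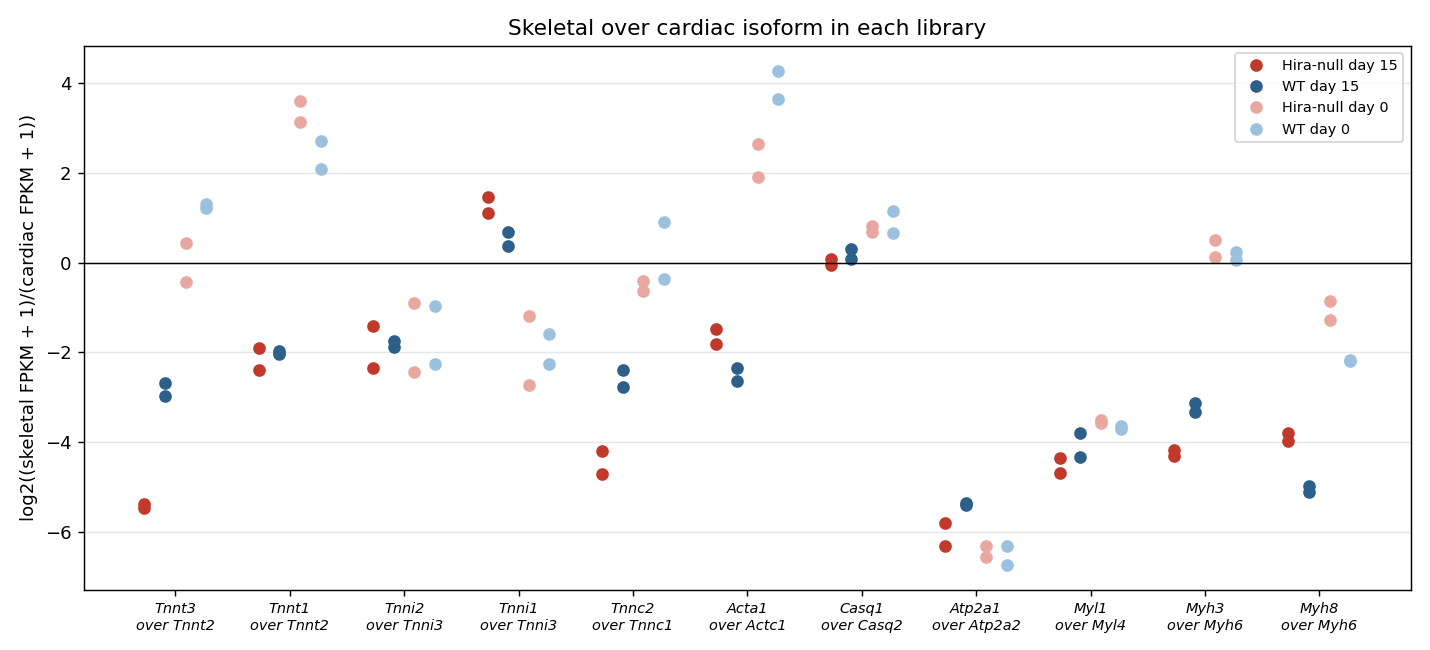
Log2 of skeletal over cardiac isoform, from (FPKM + 1), in each of the 8 libraries for 11 pairs. Each pair shows Hira-null and WT at day 15 and then Hira-null and WT at day 0, a point per library. Values above 0 mean that the first-named gene was higher, which is a skeletal isoform except for Tnni1, shared by both muscles. For Tnnt3 over Tnnt2 and Tnnc2 over Tnnc1 the Hira-null day 15 points lie below those of WT day 15, and for Myh8 over Myh6 they lie above.

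A second question was whether these differences were already there in undifferentiated cells. At day 0, 3 members were higher and 9 lower in Hira-null of the 39 tested, 30.8%, where 40.2% of all tested genes were called (20.8% higher and 19.4% lower). With an absolute log2 fold change of 1 or more as well, 2 were higher and 6 lower, where 7.22% of all tested genes passed both limits (4.63% higher and 2.59% lower). The members lower at both days were Fabp3, Myh3, Myh6, Myh7 and Tnnt3. Fabp3 was at 42.1 and 44.3 FPKM in Hira-null at day 0, against 136.9 and 108.7 FPKM in WT (log2 fold change −1.48 ± 0.13 SE, adjusted p = 8.11e-05). Myh3 was at 1.65 and 1.54 FPKM in Hira-null, against 4.67 and 4.54 FPKM in WT (−1.11 ± 0.15, adjusted p = 0.000550). Tnnt3 was at 0.260 and 0.609 FPKM in Hira-null, against 1.33 and 2.64 FPKM in WT (−1.03 ± 0.24, adjusted p = 0.00910). Lower levels of embryonic myosin and fast troponin T were thus measured before differentiation too. Myh6 was at 1.44 and 0.805 FPKM in Hira-null, against 4.45 and 3.68 FPKM in WT (−1.27 ± 0.16, adjusted p = 0.000436), and Myh7 fell by 0.81 ± 0.17 (adjusted p = 0.00541). The Tnnt3 call at day 0 was lost without Hira-null day 0 replicate 1, with an adjusted p of 0.0723, and in a fit of the 4 day 0 libraries alone (0.0686).

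No member was called higher at both days, and 5 changed direction between called values. Cryab was at 8.79 and 9.005 FPKM in Hira-null at day 0, against 29.0 and 29.7 FPKM in WT (log2 fold change −1.62 ± 0.11 SE, adjusted p = 2.56e-05), and Tpm1 was at 40.5 and 41.8 FPKM in Hira-null, against 90.0 and 81.0 FPKM in WT (−1.03 ± 0.07, adjusted p = 3.40e-05). Both were higher at day 15, as was Mybpc3, which fell by 0.51 ± 0.16 at day 0 (adjusted p = 0.0341). That Mybpc3 call was lost in 7 of the 8 fits that left out 1 library, with an adjusted p of up to 0.151, and in a fit of the 4 day 0 libraries alone (0.0719). Myl7 was at 18.8 and 16.01 FPKM in Hira-null at day 0, against 11.1 and 9.83 FPKM in WT (0.68 ± 0.10, adjusted p = 0.00114), and Actc1 at 1.89 and 3.28 FPKM in Hira-null, against 0.391 and 1.02 FPKM in WT (1.07 ± 0.23, adjusted p = 0.00655). Both were lower at day 15. The day 0 call of Actc1 was lost without Hira-null day 0 replicate 2 (adjusted p = 0.0523) and in the fit of the day 0 libraries alone (0.0745), and that of Myl7 with limma-voom on the recovered fragments (0.0618). Tnnt1 was at 13.8 and 13.3 FPKM in Hira-null at day 0, against 5.54 and 5.29 FPKM in WT (1.18 ± 0.16, adjusted p = 0.000688), and Acta1 at 17.0 and 14.9 FPKM in Hira-null, against 25.9 and 24.3 FPKM in WT (−0.62 ± 0.12, adjusted p = 0.00434).

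Most of the genes with large differences at day 15 were low in both genotypes at day 0. Nppa was at 0 in all 4 day 0 libraries, Casq2 at 0.0579 and 0 FPKM in Hira-null, against 0 in both WT libraries, and Car3 at 1.14 and 0.298 FPKM in Hira-null, against 0.889 and 2.25 FPKM in WT. Myog was at 0.295 and 0.769 FPKM in Hira-null, against 0.275 and 0.480 FPKM in WT. Desmin was an exception, at 8.31 and 9.77 FPKM in Hira-null, against 8.60 and 7.53 FPKM in WT (log2 fold change 0.15 ± 0.19 SE, adjusted p = 0.577). It was clearly expressed in both undifferentiated lines and not called.

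The other genes of the isoform pairs were given the same look at day 0. Of the fast skeletal members, Tnni2 was near the limit of detection, at 0.218 and 0.341 FPKM in Hira-null, against 0 and 0.532 FPKM in WT. Tnnc2 was at 0.210 and 0.165 FPKM in Hira-null, against 1.96 and 0.171 FPKM in WT. Myod1 was at 0 and 0.184 FPKM in Hira-null, against 0.0733 and 0 FPKM in WT, and Myl1 was at 0 in all 4 libraries. These 4 genes thus gave no called difference before differentiation, and their values overlapped or were equal. Not all fast skeletal genes were low at day 0. Mylpf, outside the members, was at 78.7 and 87.7 FPKM in Hira-null, against 25.9 and 20.5 FPKM in WT. Casq1 was at 0.855 and 0.607 FPKM in Hira-null, against 1.23 and 0.568 FPKM in WT, also with overlap. Of the cardiac isoforms, Tnnt2 was at 0.698 and 0.182 FPKM in Hira-null, against 0 and 0.473 FPKM in WT, Tnnc1 at 0.621 and 0.809 FPKM in Hira-null, against 0.580 and 0.505 FPKM in WT, and Myl2 at 0.690 and 0.180 FPKM in Hira-null, against 0.859 and 0.374 FPKM in WT. Stem cells of either genotype thus held little of these transcripts. Higher at day 0 were Myl4, at 10.9 and 10.4 FPKM in Hira-null, against 12.0 and 11.5 FPKM in WT, Tnni3, at 5.65 and 1.52 FPKM in Hira-null, against 3.79 and 2.01 FPKM in WT, and Atp2a2, at 105.9 and 106.5 FPKM in Hira-null, against 106.0 and 106.3 FPKM in WT. None of these 3 was called, and SERCA2 was nearly the same in the 4 libraries.

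The change with differentiation was then compared within each genotype. In Hira-null 25 members were higher and 6 lower at day 15 than at day 0 (79.5% of 39, against 73.9% of all tested genes, 37.5% higher and 36.4% lower). In WT 30 were higher and 3 lower (84.6%, against 69.5% of all tested genes, 36.1% higher and 33.4% lower). Under quantile normalization, which gives all libraries the same distribution of values, Hira-null had 25 higher and 6 lower and WT had 23 higher and 4 lower, so that the order of the counts of rises turned. The median log2 fold change of the tested members was 1.46 in Hira-null and 1.45 in WT. Both genotypes shared 22 of the rises. Cardiac troponin T (Tnnt2) was at 57.8 and 59.7 FPKM at day 15 in Hira-null, against 0.698 and 0.182 FPKM at day 0, a rise of 5.40 ± 0.22 SE (adjusted p = 1.06e-07), and it rose by 5.08 ± 0.22 in WT (adjusted p = 2.38e-07). Slow troponin I (Tnni1) rose by 3.43 ± 0.16 in Hira-null and by 3.72 ± 0.16 in WT (adjusted p = 1.87e-07 and 2.17e-07), which was at least 71.3-fold in WT, where no fragment was counted at day 0. Among cardiac members 14 rose in Hira-null and 15 in WT of 18. Of the 10 skeletal members tested, 2 rose in Hira-null, Car3 and Casq1, and 6 in WT. Casq1 needed its Hira-null day 15 libraries to enter the test, and Tnni2, Myod1 and Myog entered through WT day 15 alone. These skeletal counts, and those under quantile normalization below, are therefore a description. Under quantile normalization the same 2 rose in Hira-null and 3 in WT (Car3, Myod1 and Myog), with Tnnt1, Tnnt3 and Tnni2 no longer called in WT (adjusted p = 0.0842, 0.0801 and 0.0602).

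Des, Myl7 and Myog fell in Hira-null and rose in WT. Desmin was at 1.61 and 2.95 FPKM at day 15 in Hira-null, against 8.31 and 9.77 FPKM at day 0 (log2 fold change −1.64 ± 0.19 SE, adjusted p = 4.83e-05), and at 24.8 and 25.8 FPKM at day 15 in WT, against 8.60 and 7.53 FPKM at day 0 (1.54 ± 0.19, adjusted p = 9.07e-05). Myl7 fell by 0.48 ± 0.11 in Hira-null (adjusted p = 0.00280) and rose by 2.57 ± 0.11 in WT (adjusted p = 2.05e-07), and its fall in Hira-null was lost with limma-voom on the recovered fragments (−0.50, adjusted p = 0.110). Myog fell by 0.60 ± 0.19 in Hira-null (adjusted p = 0.0201) and rose by 1.55 ± 0.19 in WT (adjusted p = 0.000103), and its fall in Hira-null was lost in 3 of the 8 fits that left out 1 library, with an adjusted p of up to 0.154. Myod1 rose in WT by 1.45 ± 0.19 (adjusted p = 0.000123) and not in Hira-null (0.03 ± 0.19, adjusted p = 0.908). Myog and Myod1 entered the test through WT day 15 alone, so their rises in WT are a description. Fabp3 and Acta1 fell in both genotypes.

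**Figure D5:**
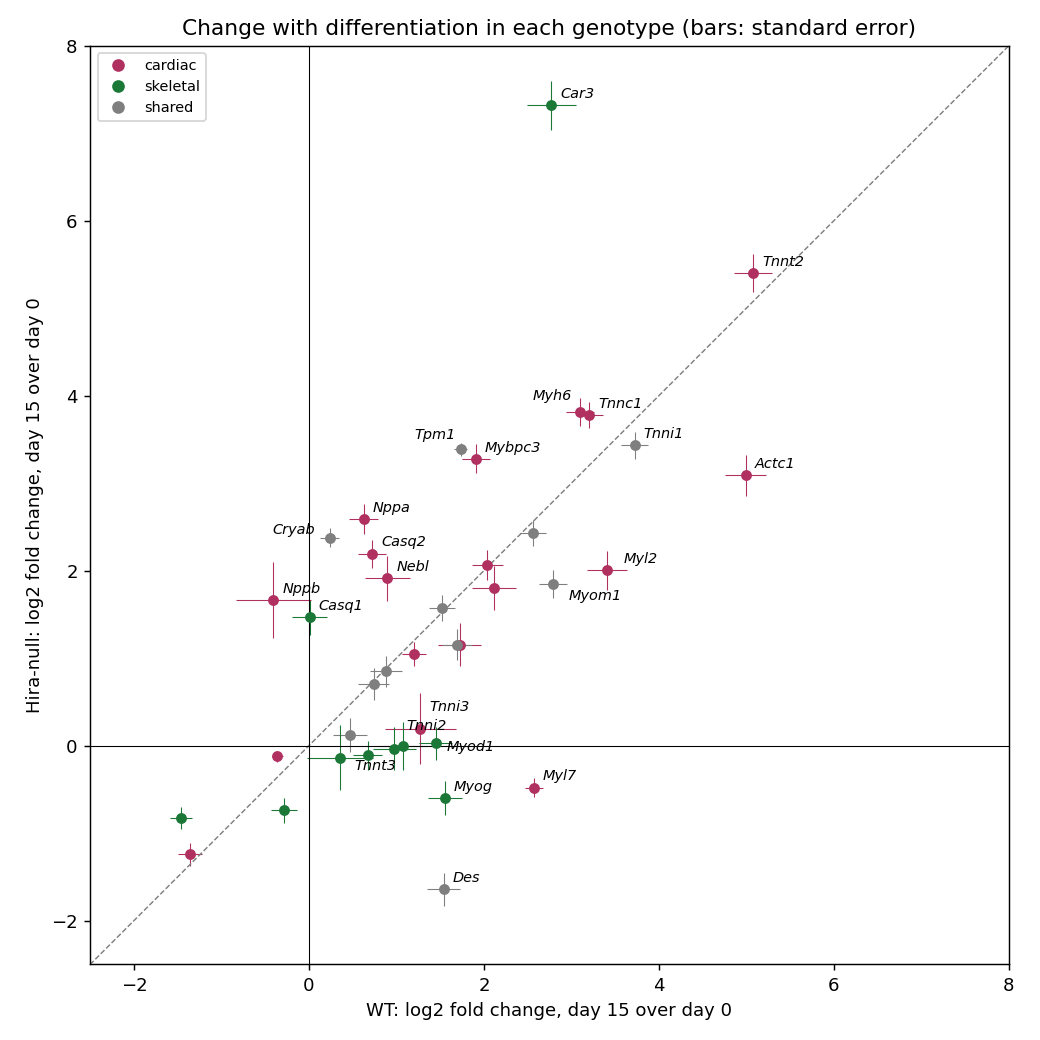
Log2 fold change of day 15 over day 0 in Hira-null (vertical) against that in WT (horizontal) for the 39 tested genes, with standard errors, coloured by class. The dashed line marks equal change in both genotypes. Car3, Nppa, Casq2, Casq1 and Cryab lie above the line, Actc1, Myl2, Myl7, Myog and Des below it, and Tnnt2 and Tnni1 near it.

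The difference between the genotype effects of the 2 days was tested directly. It passed for 18 of the 39 members (46.2%, against 35.2% of all tested genes), 10 of them towards Hira-null at day 15 (17.5% of all tested genes) and 8 towards WT (17.7%). The largest were Car3 (4.55 ± 0.40 SE, adjusted p = 0.000175), Cryab (2.14 ± 0.15, adjusted p = 8.68e-05), Des (−3.18 ± 0.27, adjusted p = 0.000159), Myl7 (−3.05 ± 0.15, adjusted p = 1.98e-05) and Myog (−2.15 ± 0.28, adjusted p = 0.000853). Myog entered the test through WT day 15 alone, so its difference is a description. For Fabp3 (0.12 ± 0.19, adjusted p = 0.662) and Myh7 (0.03 ± 0.24, adjusted p = 0.946) the genotype difference was close to the same size at both days on the log2(FPKM + 1) scale. That scale shrinks the day 0 difference of Myh7, which was then at 0.770 and 1.13 FPKM in Hira-null, against 2.22 and 2.60 FPKM in WT. For Tnnt3 the test of the difference was just missed (−1.01 ± 0.35, adjusted p = 0.0501).

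Some members share sequence with other genes. In the NCBIM37 annotation Casq1, Des, Fabp3, Myl2, Myl4, Nppa, Pln, Tnnc2, Ttn, Atp2a1 and Ckm have exons that overlap a gene on the opposite strand, and Tnni3 one on its own strand. No source used here says if the counting kept to 1 strand, and otherwise such reads cannot be told apart. Myh6 and Myh7, and Acta1 and Actc1, are near-identical over parts of their coding sequence, and the counting could have split reads between them.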

How the data were processed

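Polyadenylated RNA of WT and Hira-null mESCs at day 15 and day 0 was sequenced as stranded, paired-end libraries, 2 in each of 4 groups. Per the labels and the paper, the authors aligned reads to mm9 with Bowtie 0.12.2 and deposited FPKM values for 24421 genes. Their own comparisons, made with DESeq2 1.6.3, hold fold changes and p-values and were not used here. Positive FPKM values are whole multiples of 1 fragment once gene length is allowed for (100% within 0.1 fragment), which gave the fragments counted, 6914225 to 11106891 per library. Intervals and floors of 3 fragments over a group cover counting error only. Replicates of a group differed by a chi-square of 5.93 (Hira-null day 15), 3.94 (WT day 15), 2.90 (Hira-null day 0) and 3.99 (WT day 0) per degree of freedom. This is more than counting error gives, but it cannot tell separate cultures from separate library preparations. That each library is its own biological sample rests on the paper. The p-values measure the spread between the libraries of a group.

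The 14337 genes that reached an FPKM of 1 in 2 or more libraries were fitted as log2(FPKM + 1) with limma 3.58.1 in R 4.3.3, with 4 group means, a weight per day, an empirical Bayes trend (4 residual and 4.7 prior degrees of freedom) and Benjamini-Hochberg adjustment at 0.05. The count-based test of the study needs counts, so limma on the log scale was used. The script was tested on simulated data. Isoform ratios used FPKM + 1 and a two-sided exact permutation test. Gene positions come from the NCBIM37 annotation, which is mm9, and promoter sequences from RefSeq (GRCm38.p6), where 37 of 45 members matched.

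The members and gene lists were chosen with earlier results of these data known. Values per library were given for members past the test with an absolute log2 fold change of 1 or more between genotypes at either day, for both members of each isoform pair and for the myogenic factors. Some further members that were called with smaller changes (Myom1, for example) were named after their values were seen. Genes outside the members came from fixed lists, at most the 4 largest past the same limit in each direction, with the chromosomal neighbours of members and Hira. Mylpf, from those lists, was named below that limit after its values were seen. Alternatives were another pseudocount (0.1), other filters, quantile and median-ratio scaling, no weights, a fit per day, a replicate block, limma-voom on the recovered fragments, and leaving out each library.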

Additional observations from a re-analysis of the deposited data

Results flagged for a closer look

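For the following genes the genotype effect at day 15 differed from that at day 0, by a test of the difference itself in limma with Benjamini-Hochberg adjustment, and each value is the log2 fold change of Hira-null over WT at day 15 minus that at day 0. The sarcomere genes with a positive difference were Tpm1 (1.65, adjusted p = 7.05e-05), Mybpc3 (1.37, adjusted p = 0.00294), Myh6 (0.71, adjusted p = 0.0393) and Acta1 (0.63, adjusted p = 0.0250). For Myh6, the alpha heavy chain of the heart, Hira-null was lower at both days, and by less at day 15. The sarcomere genes with a negative difference were Myl7 (−3.05, adjusted p = 1.98e-05), Actc1 (−1.91, adjusted p = 0.00327), Myl2 (−1.41, adjusted p = 0.0104), Myom1 (−0.94, adjusted p = 0.0132) and Tnnt1 (−0.79, adjusted p = 0.0306). Desmin (Des), the muscle intermediate filament, had −3.18 (adjusted p = 0.000159), and the myogenic factors Myog −2.15 (adjusted p = 0.000853) and Myod1 −1.42 (adjusted p = 0.00421). Both myogenic factors entered the test through WT day 15 alone, so their differences are a description.

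Car3 had the largest positive difference, 4.55 (adjusted p = 0.000175). Cryab had 2.14 (adjusted p = 8.68e-05), Nppb 2.07 (adjusted p = 0.0296), Nppa 1.97 (adjusted p = 0.000699), Casq2 1.47 (adjusted p = 0.00183) and Casq1 1.46 (adjusted p = 0.00526). Nppa, Casq2 and Casq1 needed their Hira-null day 15 libraries to enter the test, so their differences are a description. Leaving out 1 library in turn took the call from Myh6 (6 of 8 fits, adjusted p up to 0.149), Tnnt1 (6, up to 0.0989), Nppb (5, up to 0.105), Acta1 (4, up to 0.1003), Myl2 (2, up to 0.0637) and Myom1 (1, up to 0.0646). With limma-voom on the recovered fragments the difference was no longer called for Nppa (adjusted p = 0.139), Casq2 (0.385), Myl2 (0.425) and Tnnt1 (0.0909), and with a pseudocount of 0.1 it was not called for Myl2 (0.212). Under quantile normalization it was not called for Tnnt1 (0.0917) and Acta1 (0.0586), nor with no filter on low values for Myh6 (0.0671), Nppb (0.0621) and Tnnt1 (0.0518). Hira itself differed between the days by 1.37 (adjusted p = 0.000444), since it was lower in the libraries labelled Hira-null at day 0 and not at day 15. Groups of 2 libraries are too small to look for a library that stands apart.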

How the results depend on the processing

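Of the 25 members called between the genotypes at day 15, 13 kept the call in every setting in which they were tested. Of these, Casq2, Nppa, Myod1 and Myog entered the test only through the group where they are high, so their calls say nothing of stability, and the other 9 were 3 higher (Car3, Casq1 and Tpm1) and 6 lower (Des, Fabp3, Myh3, Myl2, Myl7 and Tnnt3). Casq1 also needed its Hira-null day 15 libraries to enter the test, so its call says nothing of stability either. The remaining 12 lost the call in at least 1 setting, mostly without a WT day 15 library. Leaving out 1 library gave 5 to 11 members higher and 8 to 16 lower at day 15, 2 to 7 cardiac members higher and 3 to 7 lower, 2 to 3 skeletal members higher and 4 to 6 lower, and 5 to 9 members with a lower genotype effect at day 15 than at day 0. Requiring FPKM 1 in 4 libraries left 6 members higher, of which 3 were cardiac and 1 skeletal, and 2 skeletal members lower, since fewer genes were tested. With a pseudocount of 0.1, 5 members were higher at day 0. Uncalled values near 0 changed sign: Acta1 at day 15 had −0.016 under quantile normalization and −0.143 to 0.157 over the fits without 1 library, where Myl3 ranged over −0.063 to 0.156, Actn2 over −0.248 to 0.173 and Csrp3 over −0.01 to 0.108. The called fall of Atp2a2 in WT with differentiation (−0.36) became a called rise of 0.187 under quantile normalization (adjusted p = 0.0274), while the median of all tested genes moved to −0.064 under it, against 0.034 as reported. With the same scaling 23 members were higher and 4 lower in WT with differentiation. Without 1 library the day 15 difference of Tnnt1 over Tnnt2 ranged over −0.4 to 0.103 and that of Tnni2 over Tnni3 over −0.529 to 0.413. The cause of these changes was not tested. The replicate numbers do not pair the samples (correlations of replicate deviations −0.097 to 0.046), and with the replicate block 10 members were higher and 15 lower at day 15. At this depth genes under about 1 FPKM rest on few fragments.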
